A study of Mus musculus with 44 samples.

Results

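Isolated dorsal root ganglion neurons collected 8 days after partial ligation of the sciatic nerve were compared with neurons collected 8 days after a sham operation. The 12 libraries, out of 44 in the series, are the 6 ligated and 6 sham columns of the neuron expression table whose names carry neither the ipsi nor the contra mark, with 3 male and 3 female libraries in each surgery group. All came from C57BL/6 mice aged 9 to 11 weeks, with no transgene or other allele named, and both groups are labelled as the operated side. Ganglia L3 to L5 were dissociated with enzymes, neurons were enriched by magnetic sorting with a commercial neuron isolation kit, and total RNA was sequenced over 2 lanes per library. A further 8 neuron libraries, 4 from the ligated side and 4 from the opposite side of ligated mice with no sex given, were not used to choose or test the genes below and serve only for comparison. The labels do not say whether a library came from 1 mouse or a pool, nor whether libraries of a group came from separate mice, so the p-values measure the spread between libraries.

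Primary sensory neurons have their cell bodies in the dorsal root ganglia and send 1 axon branch into the peripheral nerve and the other into the spinal cord. Cutting or tying the peripheral branch is known to switch these neurons from a transmitting to a growing state: the stress transcription factor Atf3 appears in the nucleus, growth cone and cytoskeletal proteins are made, neuropeptides such as galanin and neuropeptide Y are induced, and many ion channels and receptors are reduced. In a partial ligation only some of the axons in the nerve are tied, so the ganglia hold injured and spared neurons side by side. In such bulk libraries fewer cells of a type and less RNA per cell cannot be told apart.

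The libraries fell into 2 sets that did not follow surgery. Between 10375 and 11004 genes reached 1 FPKM in a library. In 5 libraries, ligated male 1 and 2, ligated female 1, sham male 2 and sham female 1, 207 to 234 genes were listed at 0, against 341 to 616 in the other 7, and the first principal component separated these sets. The labels name no batch that matches them, and marker sums of some other cell types differed between them, as given below.

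The 4 genes given as marks of ligated neurons were higher in every ligated library than in any sham library. Values are FPKM, fragment numbers scaled by the authors for transcript length and library size. Each difference is ligated minus sham after adding 1 FPKM and taking log2, with sex as a covariate. Sprr1a encodes a small proline-rich protein that promotes axon outgrowth and lies on chromosome 3 at 92483952 to 92485895 on the minus strand of mm10. Its lowest, median and highest FPKM were 339, 542 and 916 in ligated neurons and 0, 12 and 96.5 in sham neurons. The groups did not overlap, and the sham library nearest to them was male library 2. The difference was 5.63 ± 0.80 (SE, limma adjusted p = 0.00873).

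Npy encodes neuropeptide Y, which dampens transmitter release, and lies on chromosome 6 at 49822710 to 49829507 on the plus strand. It was listed at 0 in 4 of 6 sham libraries, with 1.13 and 2.63 FPKM in the other two, against 22.6, 40.4 and 162 FPKM as the lowest, median and highest ligated values. No other tested gene had a smaller p: the difference was 5.16 ± 0.47 (SE, limma adjusted p = 0.000544). Gal encodes galanin, a neuropeptide linked to neuron survival and pain control, on chromosome 19 at 3409915 to 3414544 on the minus strand. Sham neurons already held 63.9, 132 and 183 FPKM of Gal, and ligated neurons 373, 1129 and 2248. The groups again did not overlap, ligated male library 2 being the lowest of its group, and the difference was 3.19 ± 0.38 (SE, limma adjusted p = 0.00419).

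Atf3 encodes a transcription factor of the ATF/CREB family and lies on chromosome 1 at 191170296 to 191218039 on the minus strand. Its FPKM were 62.3, 118 and 276 in ligated neurons and 3.05, 21.7 and 30.2 in sham neurons, again without overlap. The difference was 3.15 ± 0.52 (SE, limma adjusted p = 0.0212). It rested on several libraries: leaving out ligated male 3, ligated female 1, 2 or 3, sham male 1 or sham female 2 took the adjusted p past 0.05, with differences between 2.87 and 3.18. An exact two-sided permutation test of the surgery labels within sex gave p = 0.005 for each of the 4 genes, which separated groups fix at the smallest value of its 400 assignments, so it adds nothing to the separation.

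**Figure D1:**
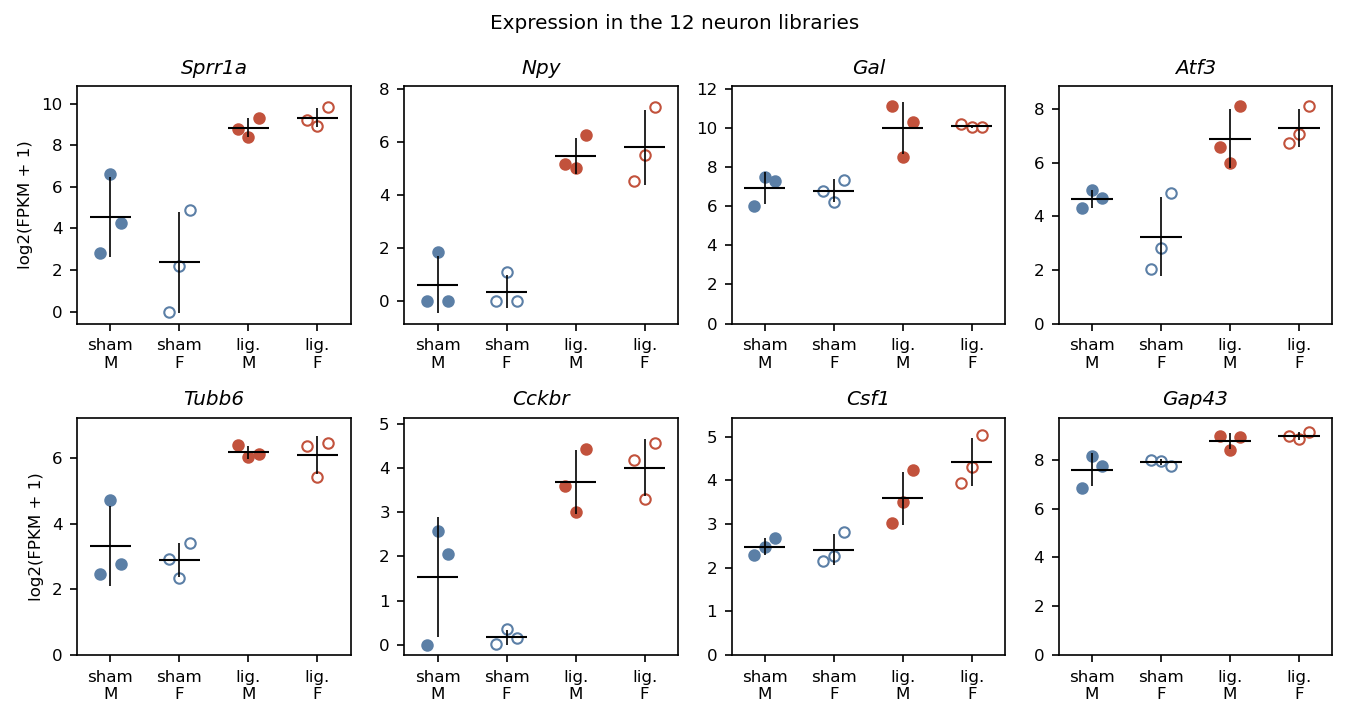
Expression of 8 genes in the 12 neuron libraries, on the log2(FPKM + 1) scale. Each point is 1 library (filled, male; open, female), the horizontal line the mean and the vertical line 1 SD of the 3 libraries of a group. Sprr1a, Npy, Gal, Atf3, Tubb6, Cckbr, Csf1 and Gap43 lay higher in every ligated library than in every sham library. The highest sham point was that of sham male 2 for all of them except Csf1, where it was sham female 3.

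The bases upstream of these marker genes, and of Ucn, are shown because the called genes rose together and several transcription factors of injury bind short motifs near start sites. Each run gives the 250 bases before the annotated start in RefSeq's GRCm38.p6, 5′ to 3′ along the gene, in lower case with motif matches in capitals. Of the 34 genes called below, 23 had such a window.
Sprr1a, chr3:92485882-92486131, minus strand: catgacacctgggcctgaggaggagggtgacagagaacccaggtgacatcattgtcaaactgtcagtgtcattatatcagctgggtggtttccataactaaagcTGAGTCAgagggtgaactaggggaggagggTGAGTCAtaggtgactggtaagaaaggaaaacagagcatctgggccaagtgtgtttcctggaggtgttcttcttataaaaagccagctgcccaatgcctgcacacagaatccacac
Ucn, chr5:31138896-31139145, minus strand: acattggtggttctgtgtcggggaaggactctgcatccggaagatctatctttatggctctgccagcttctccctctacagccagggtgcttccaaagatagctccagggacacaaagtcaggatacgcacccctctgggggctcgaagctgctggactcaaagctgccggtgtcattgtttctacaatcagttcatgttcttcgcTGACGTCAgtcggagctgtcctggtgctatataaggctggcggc
Npy, chr6:49822460-49822709, plus strand: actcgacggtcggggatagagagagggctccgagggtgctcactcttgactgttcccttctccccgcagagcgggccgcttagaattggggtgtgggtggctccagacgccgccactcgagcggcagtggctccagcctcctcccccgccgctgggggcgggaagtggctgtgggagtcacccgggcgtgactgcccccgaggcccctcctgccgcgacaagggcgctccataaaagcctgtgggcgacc
Gal, chr19:3414545-3414794, minus strand: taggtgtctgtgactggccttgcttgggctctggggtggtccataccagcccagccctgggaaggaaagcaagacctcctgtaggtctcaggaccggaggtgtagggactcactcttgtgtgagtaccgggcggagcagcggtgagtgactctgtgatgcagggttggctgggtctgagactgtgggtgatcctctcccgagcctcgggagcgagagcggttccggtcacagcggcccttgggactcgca
Atf3, chr1:191183334-191183583, minus strand: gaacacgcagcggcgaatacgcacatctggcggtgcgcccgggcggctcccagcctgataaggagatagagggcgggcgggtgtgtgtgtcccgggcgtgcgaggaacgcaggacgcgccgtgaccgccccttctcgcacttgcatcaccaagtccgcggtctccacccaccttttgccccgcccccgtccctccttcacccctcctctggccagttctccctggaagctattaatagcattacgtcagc
Capitals mark the AP-1 motif TGACTCA in Sprr1a, where it stands at 2 places as its reverse complement starting 146 and 116 bases before the start, and the cyclic AMP response element TGACGTCA in Ucn, starting 44 bases before it. Among the 23 genes, 1 held the AP-1 motif on either strand (4.35%), against 3.75% of the 8942 tested genes with a window, and 1 held the response element (4.35%), against 3.29%. The C/EBP-ATF response element TGATGNAAT was in none of the 23 and in 0.436% of the tested genes. Over all 32851 windows the shares were 4.46%, 1.55% and 0.816%. None of the 3 was found as an exact match in the windows of Npy, Gal or Atf3. The Atf3 window lies inside the gene span given above, so the bases upstream of that whole span were not searched.

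Across the 11875 genes tested, limma called 34 higher in ligated neurons (0.286%) and none lower at an adjusted p under 0.05. At an unadjusted p under 0.05 there were 368 higher (3.10%) and 252 lower (2.12%), and the median over all genes was -0.04. The 34 differences ran from 0.88 for Lgals1 to 5.63 for Sprr1a, and 32 reached 2-fold. In 30 of the 34 the lowest ligated library lay above the highest sham library, a separation seen in 82 of all tested genes (0.691%). The overlapping genes were Smim3, Tgfbi, Ecel1 and Phlda1, and 52 genes with separated groups did not pass the adjusted threshold. The count fell to 15 without ligated male 3, 18, 19 and 12 without ligated female 1, 2 and 3, 19 without sham male 1 and 19, 21 and 21 without sham female 1, 2 and 3. All 34 differences were positive in each of the 24 other settings run, and 11 of the genes were called whichever of the 12 libraries was left out: Npy, Tubb6, Gal, Sema6a, Sez6l, Stmn4, Nsg1, Tuba1c, Krt19, Sprr1a and Ucn.

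Within the 5 libraries with few genes listed at 0 all 34 differences were positive with a median of 1.40 but none of the 34 was called, and within the other 7 all were positive with a median of 2.42 and 19 of the 34 were called. The 34 were chosen over these same 12 libraries, so their signs within each set are no independent evidence. With the split as a covariate 44 genes were called, 33 of them among the 34. Sham male 2 was the highest sham library for 23 of the 34 genes, ligated female 3 the highest ligated library for 27, and ligated male 2 the lowest for 23.

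**Figure D2:**
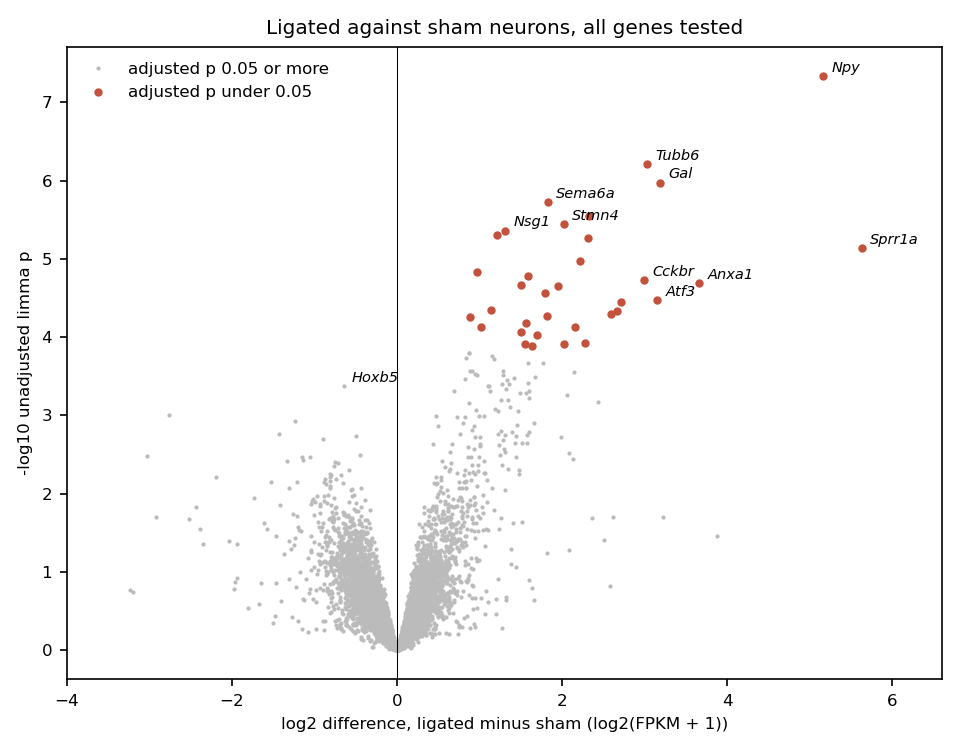
Log2 difference between ligated and sham neurons (horizontal axis) against the -log10 of the unadjusted limma p (vertical axis) for the 11875 genes tested, red where the adjusted p is under 0.05. The 34 red points all lie on the side of ligation, with Npy highest and Sprr1a farthest to the right, and Hoxb5 is the nearest to a call among genes with lower ligated values.

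The cytoskeletal and growth genes gave 4 calls among 25 tested members, beside 0.286% of all genes tested, with a list median of 0.17 against -0.04 over all genes. Besides Sprr1a these were Tubb6, Stmn4 and Gap43. Tubb6, a beta tubulin, had 41.9, 75.4 and 88.5 FPKM as its lowest, median and highest ligated values and 4.15, 6.23 and 25.3 in sham neurons. Ligated neurons thus stood above every sham library, and the difference was 3.03 ± 0.35 (SE, adjusted p = 0.00365). Stmn4, a stathmin that binds tubulin dimers, had 53.5, 93.4 and 138 FPKM against 11.3, 20.4 and 31.7, a difference of 2.02 ± 0.27 (SE, adjusted p = 0.00716). Gap43, the growth-associated protein of growth cones, was abundant in both groups, at 337, 499 and 572 FPKM against 115, 232 and 287, and differed by 1.14 ± 0.19 (SE, adjusted p = 0.0251). Its ligated values all lay above the sham values.

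Other tubulin and growth cone genes of the list did not pass. Stmn2 differed by 0.26, with an adjusted p of 0.932, and Kif22 by 1.34, with an adjusted p of 0.112. Tuba1c, an alpha tubulin outside the list, was called at 1.21 ± 0.17 (SE, adjusted p = 0.00721). Tuba1c and Tubb6 belong to families of near-identical genes, so reads could be shared with other tubulins and their values are uncertain. Krt19, a keratin of intermediate filaments, was listed at 0 in 4 sham libraries and had 3.28, 4.90 and 9.22 FPKM after ligation. Tnni1, a troponin subunit of slow muscle, had 3.76, 12.7 and 24.2 FPKM in ligated and 0, 1.31 and 3.43 in sham neurons, a difference of 2.71 (adjusted p = 0.0214).

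Neuropeptides and their processing enzymes held 4 called genes of 11 tested (0.286% over all genes), with a list median of 0.77: Npy, Gal, Ucn and Ecel1. Ucn encodes urocortin, a ligand of corticotropin-releasing hormone receptors. It was listed at 0 in 4 sham libraries, with 0.326 and 0.663 FPKM in the other two, and had 1.43, 5.04 and 10.3 FPKM after ligation. All ligated values were thus above the sham values, and the difference was 2.21 ± 0.33 (SE, adjusted p = 0.0114). Ecel1, a membrane endopeptidase also known as damage-induced neuronal endopeptidase, had 3.31, 7.36 and 12.4 FPKM against 0, 1.29 and 3.32. Its groups touched, with ligated male 1 just below sham male 3, and the difference was 2.02 ± 0.38 (SE, adjusted p = 0.0441).

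Nts, the gene of neurotensin, had a difference of 2.13, larger than that of Ecel1, but its spread was wider and its adjusted p was 0.333. The 2 list members with negative differences were Chga at -0.25 and Nmb at -0.21, neither of them called. Calca, the gene of the pain peptide CGRP and a constitutive peptide of nociceptors, had 3137, 3891 and 5278 FPKM in ligated and 1882, 2820 and 4767 in sham neurons, with overlapping groups and an adjusted p of 0.932.

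Secreted factors held 3 called genes of 12 tested, with a list median of 0.66; over all genes tested 0.286% were called. Csf1 encodes the macrophage colony-stimulating factor that injured sensory neurons are known to supply to microglia and macrophages. It had 7.13, 16.0 and 31.7 FPKM in ligated and 3.43, 4.21 and 6.05 in sham neurons, so that the groups were close but did not overlap. The difference was 1.56 ± 0.27 (SE, adjusted p = 0.0300). Anxa1, annexin A1, an anti-inflammatory phospholipid-binding protein, had 11.5, 24.3 and 112 FPKM against 0, 1.74 and 4.59, a difference of 3.66 ± 0.57 (SE, adjusted p = 0.0154). Lgals1, galectin-1, was abundant at 329, 392 and 487 FPKM against 151, 216 and 277 and had the smallest called difference, 0.88 ± 0.15 (SE, adjusted p = 0.0262). Among the members not called, Timp1, an inhibitor of matrix metalloproteinases, differed by 1.37 with an adjusted p of 0.132.

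Adhesion molecules and surface receptors held 5 called genes of 23 tested, against 0.286% of all genes, with a list median of 0.18. Cckbr, the cholecystokinin B receptor, had 7.03, 14.1 and 22.8 FPKM in ligated neurons. In sham neurons it had at most 0.277 FPKM in females but 0, 3.14 and 4.93 FPKM in males. The groups did not overlap, and the difference was 2.99 ± 0.47 (SE, adjusted p = 0.0154). Sema6a, a transmembrane semaphorin, was low in both groups at 3.25, 5.20 and 8.00 FPKM against 0.280, 0.547 and 1.29, yet its libraries were tight and its difference of 1.83 ± 0.23 had an adjusted p of 0.00562. Tnfrsf12a, the receptor of the cytokine TWEAK, had 10.6, 23.3 and 45.9 FPKM against 3.93, 5.99 and 8.95.

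The cell adhesion molecules Flrt3 and Chl1 completed the 5, at 1.58 and 1.51 (adjusted p = 0.0151 and 0.0154). Flrt3 lies within Macrod2 on the opposite strand, and no source used here states that counting used strand, so reads of the pair cannot be told apart. Similar pairs among the called genes are Sez6l with Gm6588, Nsg1 with Stx18, Scpep1 with Scpep1os, Anxa1 with 1500015L24Rik, Bcat1 with Gm26666 and Gm15687, Phlda1 with Gm28592, Atf3 with Gm24748, Chl1 with Gm7946 and Mmp16 with Gm11860. Gpr151, an orphan receptor of sensory neurons, had 9.96, 29.6 and 38.5 FPKM after ligation against 0.187, 4.48 and 12.3, a larger difference than Sema6a at 2.43, but its groups overlapped and its adjusted p was 0.115. The integrin subunit Itga7 stood just past the threshold at 1.15 with an adjusted p of 0.0558.

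Among transcription factors of the injury response, 1 of 11 tested members was called (0.286% over all genes), Atf3, while the list median was 0.56 and 10 of 11 differences were positive. Klf6, a zinc finger factor, had 17.3, 26.8 and 34.8 FPKM in ligated and 11.4, 13.7 and 15.9 in sham neurons. These groups did not overlap, but its difference of 0.87 ± 0.17 fell just outside the threshold (SE, adjusted p = 0.0531). Sox11, a factor of neuronal development and axon growth, had 8.25, 16.9 and 37.2 FPKM against 3.50, 6.38 and 9.22 and an adjusted p of 0.139. Jun, a partner of Atf3 in AP-1, had 2.99, 19.1 and 41.6 FPKM against 2.96, 8.80 and 17.4, with wide overlap and an adjusted p of 0.910. Nfil3, a repressor of the same family of binding sites, differed by 0.99 with an adjusted p of 0.374.

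In the list of stress and survival genes 1 of 24 tested members was called, against 0.286% of all genes. It was Phgdh, the first enzyme of serine synthesis, at 4.95, 12.2 and 29.7 FPKM in ligated and 0, 1.07 and 3.32 in sham neurons, a difference of 2.60 ± 0.44 (SE, adjusted p = 0.0258). Chac1, an enzyme that degrades glutathione, differed by 1.28 with an adjusted p of 0.0763, and Sesn2, a stress sensor, by 1.0 with an adjusted p of 0.321. Cdkn1a, the cell cycle inhibitor p21, differed by 0.80 with an adjusted p of 0.177. The list median was 0.28.

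Across the 6 injury lists, 18 of 106 tested genes were called (17.0%, against 0.286% of all genes tested), and 16 called genes stood in none of these lists. These lists and the markers were drawn from general knowledge of nerve injury with earlier results of these data known, so their counts are no independent evidence of direction. Of the 16, Bcat1, an enzyme of branched-chain amino acid breakdown, had 22.5, 39.7 and 61.4 FPKM after ligation and 5.82, 8.83 and 19.5 in sham neurons, without overlap. Serpinb1a, an inhibitor of serine proteases with close paralogs, had 87.0, 151 and 212 FPKM against 21.7, 49.9 and 73.8. The tetraspanin Cd63, a component of late endosomes and lysosomes, had 94.5, 174 and 196 FPKM against 65.4, 79.6 and 90.7, groups that were separate by a narrow gap.

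Nsg1, an endosomal protein of neurons, differed by 1.31 ± 0.18 (SE, adjusted p = 0.00721), and Sez6l, a transmembrane protein of neurons, by 2.33 ± 0.30 (SE, adjusted p = 0.00676). Gm34583, annotated as a transcribed processed pseudogene, had 8.04, 14.6 and 30.2 FPKM against 0, 1.67 and 4.97. Pseudogene reads can belong to a parent gene, so its value is uncertain. Tgfbi, an extracellular matrix protein, and Mmp16, a membrane-bound matrix metalloproteinase, differed by 2.28 and 1.55 (adjusted p = 0.0441 for both). Trp53i11 differed by 2.15, Smim3 by 1.82, Shisal2a by 1.5 and Scpep1 by 0.97. Phlda1 closed the called set at 1.64 with an adjusted p of 0.0452, and the first genes outside it were Tmtc4 at 0.88 and Klf6, both at 0.0531.

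**Figure D3:**
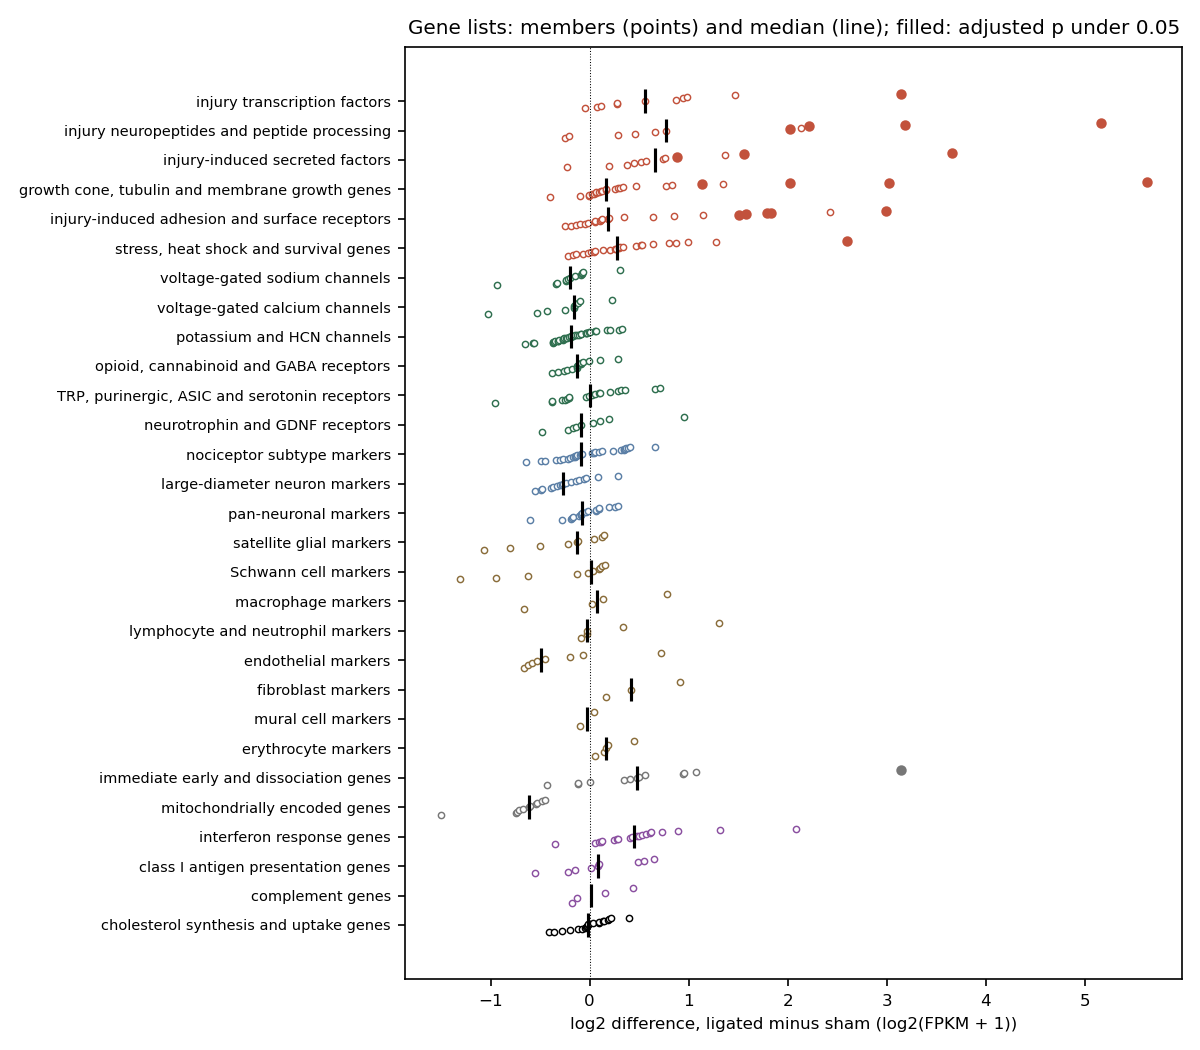
Log2 difference between ligated and sham neurons for the tested members of each gene list (points) with the list median (black line); filled points passed an adjusted p of 0.05. Filled points stand in the 6 injury lists and, through Atf3, in the immediate early list. None stand in the excitability lists (channels and receptors) or the identity lists, whose medians ran from -0.27 to 0.004.

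By limma, no channel or receptor gene was called in either direction among the 102 tested members of the excitability lists. Gfra3 and Scn4b did pass in the authors' deposited table, as given below. Of the 102, 77 had negative differences by limma (75.5%), against 56.8% of all genes, and the median was -0.14. Under quantile normalisation and median scaling 70 of the 102 were negative, against 52.5% and 47.0% of all genes. For sodium channels 12 of 13 differences were negative, with a median of -0.20. Scn10a, the nociceptor channel Nav1.8, had 113, 133 and 194 FPKM in ligated and 144, 179 and 211 in sham neurons, a shift of -0.34 ± 0.15 with overlapping groups (SE, adjusted p = 0.931). Scn4b, an accessory beta subunit, had the lowest difference at -0.93 (adjusted p = 0.699), and Scn3b was the positive one at 0.31. Calcium channels were negative in 9 of 10, with a median of -0.16. Cacna1a, the pore of P/Q-type channels, stood at -1.03 (adjusted p = 0.672) and Cacna2d1, the gabapentinoid-binding subunit, at 0.22 (adjusted p = 0.950).

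Potassium and HCN channels were negative in 29 of 36, with a median of -0.19, and the members with the smallest p were Kcnmb1, an accessory subunit of BK channels, at -0.58 (adjusted p = 0.414) and Kcns1, a silent modifier subunit, at -0.65 (adjusted p = 0.932). When libraries were scaled to a common median or quantile-normalised, 25 or 26 of the 36 stayed negative, and sodium and calcium channels were negative in 11 or more of 13 and 9 of 10. Opioid, cannabinoid and GABA receptors were negative in 12 of 14, with a median of -0.12. The TRP, purinergic, acid-sensing and serotonin receptors were split 10 to 10. Trpv1, the capsaicin receptor, had 104, 153 and 208 FPKM in ligated and 57.7, 105 and 138 in sham neurons, a difference of 0.66 ± 0.23 that failed correction (SE, adjusted p = 0.699). Gfra3, the artemin co-receptor, had 88.0, 121 and 179 FPKM against 39.8, 66.5 and 102 and an adjusted p of 0.223.

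Genes with lower values after ligation were not called, but 12 had every ligated library below every sham library (0.101% of genes tested). Hoxb5, a homeobox factor, had 12.8, 21.0 and 23.7 FPKM in ligated and 25.8, 30.0 and 38.9 in sham neurons. Its difference was -0.65 ± 0.14 (SE, adjusted p = 0.0873). Rasgrp1, an exchange factor for Ras, had 28.3, 32.8 and 40.2 FPKM against 42.2, 45.3 and 58.1, and a difference of -0.49 with an adjusted p of 0.221. Hip1, an endocytic adaptor, and Snx9, a sorting nexin, differed by -0.72 and -0.52. Dynlrb2, a dynein light chain, had 0, 0.361 and 1.07 FPKM in ligated and 1.17, 2.25 and 5.24 in sham neurons. Tmem204 had 0, 0.133 and 0.333 FPKM against 0.397, 2.60 and 4.88.

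The neuron label was checked against marker genes. Uchl1, a neuronal deubiquitinase, had 1664 to 2226 FPKM in ligated and 1638 to 2097 in sham libraries, and Snap25, a synaptic vesicle fusion protein, 653 to 868 over all 12. Pan-neuronal markers differed by a median of -0.08. The series' design text calls these cells nociceptors. Nociceptor markers summed to 7953 to 11620 FPKM, and Nefh, the heavy neurofilament that marks large myelinated neurons, had 28.9 to 186 FPKM. The large-diameter list had a median of -0.27 with 15 of 17 differences negative (56.8% over all genes). Its summed FPKM ran from 2011 to 4928 in ligated and 1958 to 4495 in sham libraries.

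Marker genes of other cells were summed in each library. Macrophage genes, 6 of 21 with values, summed to 6.22 to 9.29 FPKM in ligated and 5.35 to 8.68 in sham libraries. Satellite glial genes, 10 of 17 with values, summed to 760 to 1088 against 914 to 1265 FPKM, mostly through Cadm1 and Hmgcs1, which neurons also express, while Apoe stayed at or below 4.44 and Fabp7 at or below 7.73 FPKM. Schwann cell genes, 11 of 15, summed to 1282 to 3093 against 1302 to 2724 FPKM, with Pmp22 reaching 2803 FPKM. Endothelial genes, 8 of 12, summed to 35.5 to 86.2 against 38.9 to 111 FPKM. Fibroblast genes, 4 of 10, summed to 38.5 to 75.4 against 28.5 to 49.9 FPKM, and mural genes, 2 of 10, to 21.5 to 48.1 against 25.3 to 38.1. Lymphocyte and neutrophil genes, 7 of 15, summed to 2.43 to 11.9 against 1.51 to 15.8 FPKM, and red cell genes, 5 of 5, to 561 to 18891 against 354 to 15320. Some of these sums followed the split of the libraries. Schwann cell sums were 2290 to 3093 FPKM in libraries with few genes listed at 0 and 1282 to 1615 in the others. Satellite glial sums were 1058 to 1265 against 760 to 1049 FPKM, and red cell sums 354 to 2322 against 3584 to 18891. The sums of the remaining cell types overlapped between the sets. No gene of any of these cell lists was called, and the part of these lists in the called differences was not tested.

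Immediate early genes, which respond to dissociation as well as to injury, summed to 239 to 545 FPKM in ligated and 170 to 245 in sham libraries. Without Atf3 the remaining 13 summed to 144 to 273 against 159 to 217 FPKM, overlapping ranges. Of the 13 members tested, which include Atf3, 10 had positive differences (43.2% over all genes), with a median of 0.48. At an unadjusted limma p under 0.05, 4 of them were higher (3.10% over all genes), and only Atf3 was called. The 20 interferon response genes were positive in 19 cases (43.2% over all genes) with a median of 0.45. In 5 of them the rise had an unadjusted limma p under 0.05 (3.10% over all genes), and none was called. Usp18, a brake on interferon signalling, differed by 2.09 (adjusted p = 0.304) and Ifit1 by 1.31 (adjusted p = 0.299). All 11 mitochondrially encoded genes were negative with a median of -0.61, but their summed FPKM ranged from 450 to 8343 in ligated and 1018 to 12313 in sham libraries. These sums followed the split of the libraries. They were 450 to 3824 FPKM where fewer than 300 genes were listed at 0, and 5905 to 12313 in the other libraries. With the split as a covariate the median was -0.23, and without sham male 2 it was -1.03. All 11 stayed negative in both fits. The cause of these differences was not tested.

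Each sex was then read on its own. In females 17 genes were called, all higher (0.143%), and 16 of them belonged to the 34. In males limma called none (0.0%), with a smallest adjusted p of 0.115, although 208 genes were higher (1.75%) and 239 lower (2.01%) at an unadjusted p under 0.05. Leaving out sham male 2 raised the male count to 5 and leaving out ligated female 3 to 1, all higher. Without ligated male 2 there were 2 male calls, 1 higher and 1 lower, and without ligated male 1 there was 1, lower. The female count fell to 3, 0 and 0 without ligated female 1, 2 and 3, and to 0 and 2 without sham female 1 and 2. All 34 genes were positive in both sexes, with medians of 1.60 in males and 2.48 in females. In males 31 of the 34 had separate groups (2.60% of all genes did, ligated above) and in females all 34 (4.59%). The 34 were chosen by the test over both sexes of these same libraries, so these signs and separations are no independent evidence.

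The test of the difference itself, female minus male, called no gene of 11875, with a smallest adjusted p of 0.999 and 236 genes at an unadjusted p under 0.05 (154 larger in females, 1.30%). The female difference was the larger in 31 of the 34 genes, against 57.8% of all genes. That count was 24 without sham male 2, 26 without ligated male 2 and 27 without ligated female 3. At an unadjusted p under 0.05 the sexes differed for 6 of the 34, all larger in females: Gm34583 at 1.51 in males and 3.81 in females, Smim3 at 1.09 and 2.54, Sez6l at 1.66 and 3.00, Trp53i11 at 1.31 and 3.00, Krt19 at 1.67 and 2.97, and Ecel1 at 1.26 and 2.78. Among the 4 marks, Sprr1a differed by 4.28 ± 1.04 in males and 6.97 ± 1.04 in females (SE), while Gal, at 3.06 and 3.32, was nearly level. The genes with the smallest p for the sex difference over the whole table, led by Nmd3 and Plcd3, stood at an adjusted p of 0.999.

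**Figure D4:**
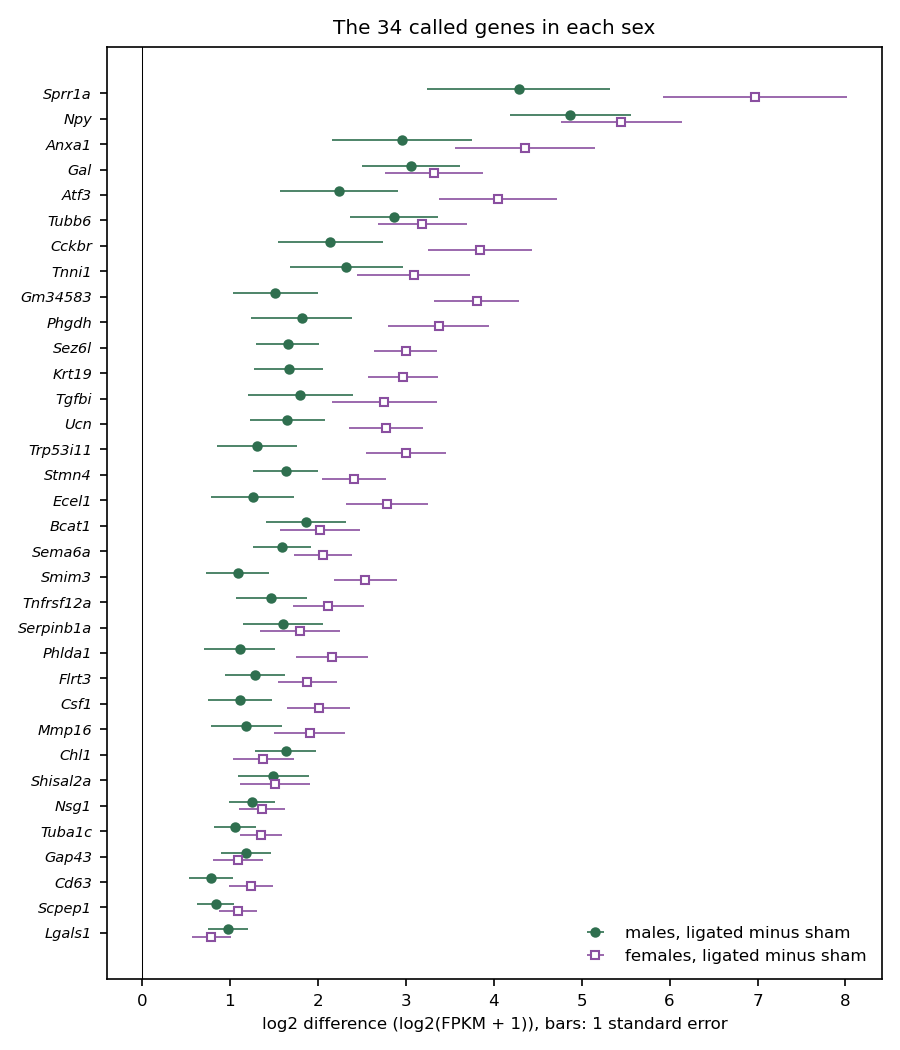
Log2 difference between ligated and sham neurons for the 34 called genes in males (filled circles) and females (open squares), with bars of 1 standard error, ordered by the difference over both sexes. All points lie above 0, and the female point is the higher in 31 of 34 genes, most widely apart for Sprr1a and Gm34583.

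The 8 libraries that compare the ligated with the opposite side are not among the 12, but all 20 were fitted together and share 1 filter and 1 estimate of the spread. The labels do not say whether both sets hold the same mice. Between the sides 80 genes were higher on the ligated side (0.659%) and 1 lower (0.00823%) of 12145 tested. All 34 genes had positive differences there, and 31 were called, which is 91.2% of the 34 and 38.8% of the 80. For 33 of the 34 the groups did not overlap (2.68% of all genes did so). The genes not called there were Scpep1 and Cd63, at adjusted p = 0.0564 for both, and Shisal2a at 0.551, which was listed at 0 in 2 of the 4 libraries of the ligated side. Of the 49 genes called higher between sides and not by surgery, 44 were tested here, 43 of them were positive, and 37 had an unadjusted p under 0.05 in the direction of ligation, a share found in 3.10% of all genes.

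Differences were larger between sides than between surgeries for 32 of the 34 genes, with medians of 2.78 and 1.98. Sprr1a had 0.0701 and 0.144 FPKM in 2 of the opposite-side libraries and was listed at 0 in the others, against the sham median of 12, and its difference between sides was 9.56 ± 0.75 (SE). Anxa1, Cckbr, Npy, Ucn and Tgfbi were listed at 0 in all 4 opposite-side libraries. Bcat1 differed by 4.67 between sides and by 1.95 between surgeries, and Stmn4 by 3.71 and 2.02. A test of the difference of the 2 effects called no gene, with a smallest adjusted p of 0.9999 and 405 genes at an unadjusted p under 0.05 (148 with the larger value between surgeries, 1.22%, and 257 between sides, 2.12%), among them 10 of the 34. Leaving out same-side library 1 or 3 gave 1 call, with the larger value between sides. The count of genes called between the sides was 81 with all libraries. Leaving out 1 library gave from 62, without opposite-side library 2, to 119, without same-side library 3.

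**Figure D5:**
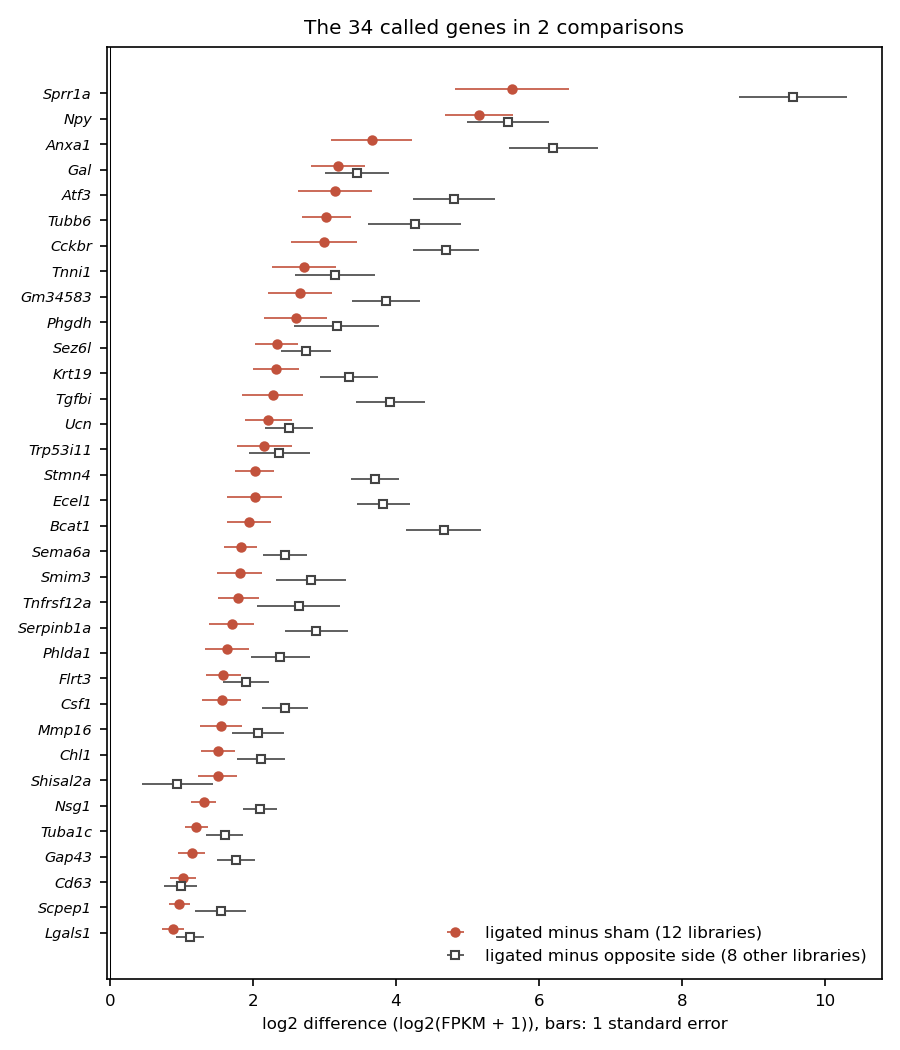
Log2 difference with 1 standard error for the 34 called genes between ligated and sham neurons (filled circles, 12 libraries) and between the ligated and the opposite side (open squares, 8 other libraries). The squares lie farther from 0 for 32 genes, and the 2 exceptions are Cd63 and Shisal2a.

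The authors' deposited table of DESeq2 results for 8-day neurons was read alongside. It does not state which libraries it compares, and its headers give no direction. Its fold changes are given here with the sign reversed and are read as ligated over sham. In it, the authors' deposited table, 237 genes had an adjusted p under 0.05, 45 with lower values in ligated neurons and 192 with higher values. Among the genes tested here were 182 of the 192 that the authors' deposited table gives as higher (1.57%). Of the 34 genes, 28 passed in the authors' deposited table, all higher. The 6 that did not pass in the authors' deposited table were Sprr1a, Krt19, Cckbr, Shisal2a, Tgfbi and Ecel1. Each of these 6 was listed at 0 in at least 1 sham library, and 14 of the 34 were. For Sprr1a the authors' deposited table gave a log2 fold change of 0.61 with an adjusted p of 0.115, and for Npy 0.78 with 0.0282. For Gal the authors' deposited table gave 2.72, for Atf3 2.27, for Sema6a 2.20 and for Csf1 1.92. Other genes that limma did not call here passed in the authors' deposited table. Among them Klf6, Sox11, Jun, Chac1, Cdkn1a, Timp1, Usp18, Ifit1 and Stmn2 were higher. Gfra3 was also higher there, at 0.90 (DESeq2 adjusted p = 0.000421). Scn4b was lower there, at -0.73 (DESeq2 adjusted p = 0.0462). Trpv1, Scn10a, Nfil3 and Sesn2 did not pass there. Among the genes with separated lower values, the authors' deposited table gave Rasgrp1 as lower, at -0.49 with an adjusted p of 0.00386. Hoxb5 stood at -0.55 with an adjusted p of 0.0504 in the authors' deposited table. The fold changes of the 2 sources are on different scales.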

How the data were processed

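RNA of magnetically sorted dorsal root ganglion neurons was sequenced in 20 libraries, of which 12 form the comparison. The deposited FPKM table was made by the authors, and per the submitters' processing notes STAR, SAMtools, Cufflinks and DESeq2 were used with the mm10 build, in versions and an order not given in the sources used here. FPKM keep no fragment counts, so the depth of each library is unknown and no counting interval is given. The authors' deposited table of DESeq2 results holds log2 fold changes, p-values, a score (headed stat) and a mean signal per gene (headed baseMean), per the file headers.

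The 12181 lines of the FPKM table were summed to 12170 gene identifiers, 12121 of them named through GENCODE M21. Columns were mapped to groups by name. They carry no replicate numbers of the labels, so library numbers are names only. Genes with at least 1 FPKM in 3 of the 12 libraries were tested on log2(FPKM + 1) with limma 3.58.1 in R 4.3.3 (trend, sex covariate, two-sided moderated test) and Benjamini-Hochberg adjustment over all genes tested, and called at an adjusted p under 0.05. Sexes and their difference came from a 4-group fit, and the side comparison from a fit of 20 libraries. The script was tested on simulated data. Markers of sex in the libraries matched the labels. The members, gene lists and tests were chosen with earlier results of these data known. Named genes are the 4 marks, the 10 largest called rises, up to 10 separated falls, up to 4 members per list with the smallest p, 5 sex-difference genes and defining cell markers. The other called genes, Chga, Nmb, Tuba1c, Tmtc4 and Itga7, and familiar neuron markers were added after their values were seen. Alternatives tried were other pseudocounts, filters, scalings, array weights, no sex covariate, a 20-library fit and leaving out each library. Chosen after seeing the data were a covariate for libraries with fewer than 300 genes listed at 0 and fits within each of those 2 sets.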

Additional observations from a re-analysis of the deposited data

Results flagged for a closer look

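For the 34 called genes, the ligated and sham values of the 12 libraries were checked for 1 library far from the other 5 of its surgery group. Of 68 groups checked, 6 held such a library. Chance gives about 1 in 20 for independent random groups. That rate is no yardstick here, because these groups share libraries and the genes were chosen by a test over the same values. Of the 6, 5 were sham groups and 1 was a ligated group. Sham male 2 stood above the other sham libraries for Tuba1c at 28.3 FPKM, for Krt19 at 1.93 FPKM and for Shisal2a at 0.439 FPKM. Sham male 3 was the lowest sham library for Nsg1 at 10.3 FPKM, and sham male 1 the lowest for Gap43 at 115 FPKM. Ligated male 3 was the highest ligated library for Shisal2a at 5.78 FPKM.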

How the results depend on the processing

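The direction of all 34 called genes held in each of the 24 other settings run, and 13 genes stayed called in every planned setting other than leaving out a library. Counts of calls were 23 and 32 with 0.1 and 5 FPKM added, 41 and 35 after quantile normalisation and median scaling, 49 without the sex covariate, and 18 with array weights. Among libraries with fewer than 300 genes listed at 0 the count was 1, and among the others 22, of which 20 were higher and 2 lower in ligated neurons. In females, adding 0.1 FPKM left 1 call. Lower calls also came without sham male 2 (42 higher and 1 lower), in males without ligated male 1 or 2 (1 lower each), and in females without ligated male 1, ligated male 2 or sham female 3 (1 lower each). Leaving out 1 library at a time gave 12 to 43 calls with both sexes, 0 to 5 in males, 0 to 17 in females, 0 to 2 for the difference of the sexes and 0 to 1 for the difference of the 2 effects. The difference of Atf3 ran from 2.78 to 3.45 over those fits.

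Some marks missed the threshold in a setting: Sprr1a with 0.1 FPKM added (6.28) or array weights (5.18), Atf3 with array weights (2.90), and Sprr1a, Npy, Gal and Atf3 within the libraries with fewer than 300 genes at 0 (5.09, 3.81, 2.78 and 2.77). In that last setting 5 libraries remained. The cause was not tested for the others. No paired analysis was possible because the columns carry no replicate numbers of the labels, so the fits with a replicate block, alone or with array weights, were not run. Depth is unknown, and genes near 1 FPKM depend most on the value added.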
